A study of Mus musculus with 2 samples.

Results

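Thymic T cells that carry transcripts of the interferon-induced genes Ifit1, Ifit3 and Isg15 were described in 2 single-cell RNA libraries of YFP+ mouse thymus cells. The members were chosen by their counts. A cell had to hold at least 3 UMIs (molecule counts) of these 3 genes together, at least 1 UMI of the CD3 genes Cd3d, Cd3e and Cd3g, and no UMI of Cd8b1, Trav11, Rag1 or Ncr1. There were 948 such cells among 13298 kept cells, 368 of 5903 in the cKO library and 580 of 7395 in the control library. The cKO cells came from mice of genotype Tbx21Cre Ets1F/F Rosa26-YFP+, and the control cells from mice of genotype Tbx21Cre Rosa26-YFP+. All of these mice thus carried Cre under the control of Tbx21, which encodes T-bet, a regulator of cytotoxic and type 1 lymphocytes, and the YFP reporter that Cre switches on, so YFP marks cells that express or once expressed T-bet. The cKO mice also carried loxP-flanked Ets1, the gene of an ETS family transcription factor that was the object of the study. Each library was pooled from 2 mice, which cannot be told apart in the counts, and there was 1 library per genotype. No test between genotypes was therefore possible, differences have no replicate check, and every interval below is an exact 95% interval that covers counting error only.

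Interferons are secreted proteins that cells release on sensing infection and that some tissues, the thymus among them, also make without infection. Type I interferons bind the receptor chains Ifnar1 and Ifnar2, and the kinases on the receptor activate STAT proteins, Stat2 among them, which join with Irf9 into a complex that binds interferon-stimulated response elements in promoters. The genes switched on include antiviral effectors, further sensors and relay factors, and brakes that end the signal. Interferon-γ uses another receptor, and many genes answer to both kinds of interferon.

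The cKO library held 11206 barcodes and 39979742 UMIs, and the control library 10102 barcodes and 35210431 UMIs. The kept cells had a median of 5533 UMIs in the cKO library and 2666 in the control library, and 29 barcodes occurred in both. Each member was set against 1 comparator cell of the same library, a CD3+ cell with no Cd8b1 UMI and no UMI of the 3 genes, matched within 10% of its depth. This gave 367 pairs in the cKO library, with median depths of 7302 UMIs in members and 7304 in comparators, and 579 pairs in the control library, with 6101 UMIs in both. Comparators could hold Trav11, Rag1 or Ncr1, which members could not. Levels are given as CPM, UMIs of a gene per 1000000 UMIs, both summed over the cells. Members and comparators were split by interferon genes, so all differences between them describe the chosen cells.

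Ets1, the targeted gene (chromosome 9, 32636221 to 32757820, plus strand, GRCm38), stood at 170 CPM in cKO members and 510 CPM in control members, a ratio of 0.334 (interval 0.302 to 0.367). In comparators the ratio of cKO to control was 0.314. The lower level is on the side of the label, but no source used here names the deleted exons, and the counts come from 3' tags that may lie outside them. Within a library Ets1 did not differ by the size rule below, with 172 CPM in cKO members against 163 CPM in cKO comparators, and 511 CPM in control members against 519 CPM in control comparators.

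The genes of the rule encode Ifit1, which binds foreign RNA, its relative Ifit3, and Isg15, a ubiquitin-like protein that is attached to other proteins. Ifit1 and Ifit3 lie on chromosome 19 (34640871 to 34650009 and 34583531 to 34588731, both on the plus strand) and Isg15 on chromosome 4 (156199424 to 156200818, minus strand). Their promoters are shown because they carry the element through which interferon acts. Each run holds 250 bases before and 50 bases after the RefSeq transcription start on GRCm38.p6, from 5' to 3' on the strand of the gene. Capitals mark the letters GAAANNGAAA of the response element or their reverse complement. The windows are chr19:34640639-34640938 for Ifit1, chr19:34583279-34583578 for Ifit3 and chr4:156200769-156201068 for Isg15.
Ifit1: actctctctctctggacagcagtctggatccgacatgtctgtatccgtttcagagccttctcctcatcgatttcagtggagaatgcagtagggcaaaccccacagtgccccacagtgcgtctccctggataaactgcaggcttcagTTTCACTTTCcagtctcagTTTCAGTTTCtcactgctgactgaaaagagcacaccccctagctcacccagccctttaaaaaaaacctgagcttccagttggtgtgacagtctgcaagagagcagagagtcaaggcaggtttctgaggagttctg
Ifit3: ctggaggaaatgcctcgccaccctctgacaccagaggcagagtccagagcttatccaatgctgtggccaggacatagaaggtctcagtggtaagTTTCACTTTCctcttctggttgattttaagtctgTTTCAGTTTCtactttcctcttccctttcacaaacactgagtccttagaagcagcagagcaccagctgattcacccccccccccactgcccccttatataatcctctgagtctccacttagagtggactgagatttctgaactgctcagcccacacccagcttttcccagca
Isg15: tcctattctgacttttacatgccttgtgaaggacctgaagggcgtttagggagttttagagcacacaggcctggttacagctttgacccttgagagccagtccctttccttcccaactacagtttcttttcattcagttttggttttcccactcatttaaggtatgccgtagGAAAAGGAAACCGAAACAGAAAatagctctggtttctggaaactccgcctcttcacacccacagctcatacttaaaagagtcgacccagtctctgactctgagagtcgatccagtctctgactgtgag
Ifit1 holds 2 matches, 104 and 85 bases before the start. Ifit3 holds 2 matches as well, 156 and 122 bases before the start. Isg15 holds 3 that overlap, at 78, 72 and 66 bases before the start.

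Most members held few of the chosen transcripts. The median was 6 UMIs of the 3 genes in cKO members and 5 in control members, the highest 109 and 76. Members just inside the threshold, with exactly 3 UMIs, numbered 92 in the cKO library (25% of members) and 169 in the control library (29.1%). Just outside it, 211 cKO cells and 374 control cells of the same gate held exactly 2 UMIs. At the other end, 58 cKO members and 66 control members held 20 or more. All 3 genes were present in 176 cKO members (47.8%, interval 42.6 to 53.1%) and in 289 control members (49.8%, 45.7 to 54.0%). Only 1 of the genes was present in 48 cKO members and 63 control members. In the matched sets Isg15 reached 467 CPM in cKO members and 583 CPM in control members, Ifit3 463 and 559 CPM, and Ifit1 339 and 398 CPM. Ifit3 has a close neighbour of similar sequence, Ifit3b, between which reads may be split.

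Responding cells made up 13.3% of T cells within the gate in the cKO library (368 of 2773, interval 12 to 14.6%) and 9.98% in the control library (580 of 5812, 9.22 to 10.8%). The gate is the rule without its interferon clause. Depth moved with this difference, since gated cells had a median of 6701 UMIs in the cKO library and 2529 in the control library. After each cell was thinned to 1500 UMIs and gate and rule were applied to the thinned counts, the share was 4.17% in the cKO library (117 of 2803, 3.46 to 4.98%) and 4.55% in the control library (198 of 4348, 3.95 to 5.22%). The order of the libraries thus turned, and the intervals overlapped. Thinning left out 1297 cKO and 2194 control cells of all kept cells for being shallower. Among cells of at least 3000 UMIs, without thinning, the shares were 14.5% in the cKO library and 16.9% in the control library.

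With kinds of cell set by the full counts and the interferon rule by the thinned counts, gated T cells met it in 4.39% of cases in the cKO library and 4.75% in the control library. T cells with a UMI of Trav11, the receptor segment of invariant NKT cells, met it in 6 of 136 cKO cells (4.41%, 1.64 to 9.36%) and 8 of 152 control cells (5.26%, 2.30 to 10.1%). T cells with a Cd8b1 UMI met it in 20 of 563 cKO cells (3.55%, 2.18 to 5.43%) and 10 of 706 control cells (1.42%, 0.681 to 2.59%). In the cKO library no cell of 764 that carried at least 20 gut epithelium UMIs and no CD3 UMI met it, which allows a share of up to 0.393% (3 counts of the total), with an exact upper limit of 0.482%. The control library held 0 such gut epithelium cells. How these cells came into a library of thymus cells was not tested. B cells without CD3 met the interferon rule in 2 of 201 cKO cells and 2 of 36 control cells, and NK cells without CD3 in 0 of 39 cKO cells and 1 of 86 control cells. Cells with a Rag1 UMI, an earlier thymocyte stage, met it in 0 of 57 cKO cells and 1 of 38 control cells. Median depths before thinning differed between these kinds, 6829 UMIs in gated T cells of the cKO library against 2536 in gut epithelium cells. The share in gated T cells of the cKO library lay above both limits for gut epithelium cells of the same library.

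**Figure D1:**
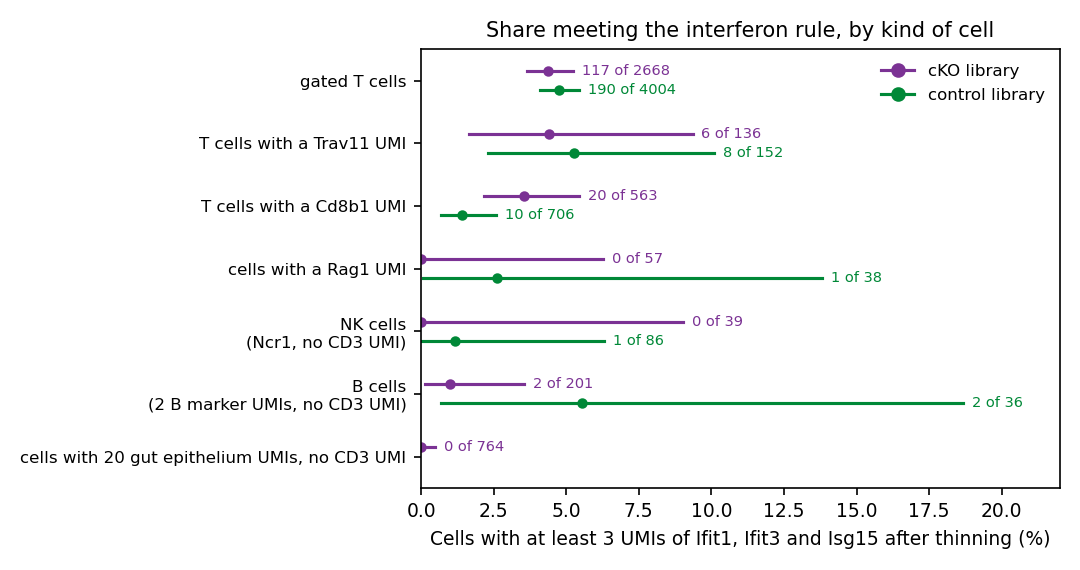
Share of cells (horizontal axis, percent) with at least 3 UMIs of Ifit1, Ifit3 and Isg15 after thinning to 1500 UMIs, for kinds of cell (vertical axis) in the cKO library (purple) and the control library (green); points are shares, lines exact 95% intervals, and the numbers are cells meeting the rule of all cells. Gated T cells and T cells with Trav11 lie near 4 to 5% in both libraries, while the 764 gut epithelium cells of the cKO library hold none.

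Levels of 2 interferon genes that the rule did not use, and of T cell genes, describe the chosen cells. The 2 interferon genes belong to the same response as the rule genes. Members and comparators were both chosen by CD3 genes. Neither set of values is therefore an independent check of the name. Irf7, a transcription factor that amplifies the interferon response (chromosome 7, 141262706 to 141266481, minus strand), stood at 152 CPM in cKO members against 26.2 CPM in cKO comparators, and at 217 CPM in control members against 37.2 CPM in control comparators. The ratios of members to comparators were 5.77 (4.58 to 7.43) and 5.82 (4.86 to 7.07). Rtp4, a chaperone-like protein induced by interferon, stood at 175 CPM in cKO members against 16.9 CPM in cKO comparators, and at 224 CPM in control members against 39.1 CPM in control comparators. After thinning, Irf7 was detected in 19.3% of 367 cKO members and 3.0% of as many comparators, and in 27.4% of 525 control members and 6.67% of as many comparators. Without thinning the shares were 63.5% and 13.9% in the cKO library, and 62.3% and 18.8% in the control library. Of 16 T cell genes, which include the CD3 genes of the gate, the T cell receptor constant regions, Lck and Zap70, 0 were higher and 0 lower in either library, with summed levels of 8947 CPM in cKO members and 9081 CPM in cKO comparators, and of 9446 CPM in control members and 9113 CPM in control comparators.

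Cell by cell, the interferon genes outside the rule were spread widely among members. A list of 73 type I interferon effectors, of which 70 are in the files and none is a rule gene, gave a median of 24 UMIs per 1500 in cKO members and 12 in cKO comparators, and of 25 in control members and 12 in control comparators. In cKO members the 10th to 90th percentiles ran from 11 to 46, against 6 to 20 in comparators. In control members they ran from 13 to 47, against 7 to 20 in comparators. Members above the comparators' 90th percentile made up 60.8% in the cKO library (55.6 to 65.8%) and 67.0% in the control library (62.8 to 71.1%). At or below the comparators' median were 13.1% of cKO members and 8.95% of control members. The groups overlapped in both libraries. Members that held all 3 rule genes had 19911 CPM of the list in the cKO library and 21420 CPM in the control library. Members that held only 1 of them had 13235 and 12216 CPM.

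**Figure D2:**
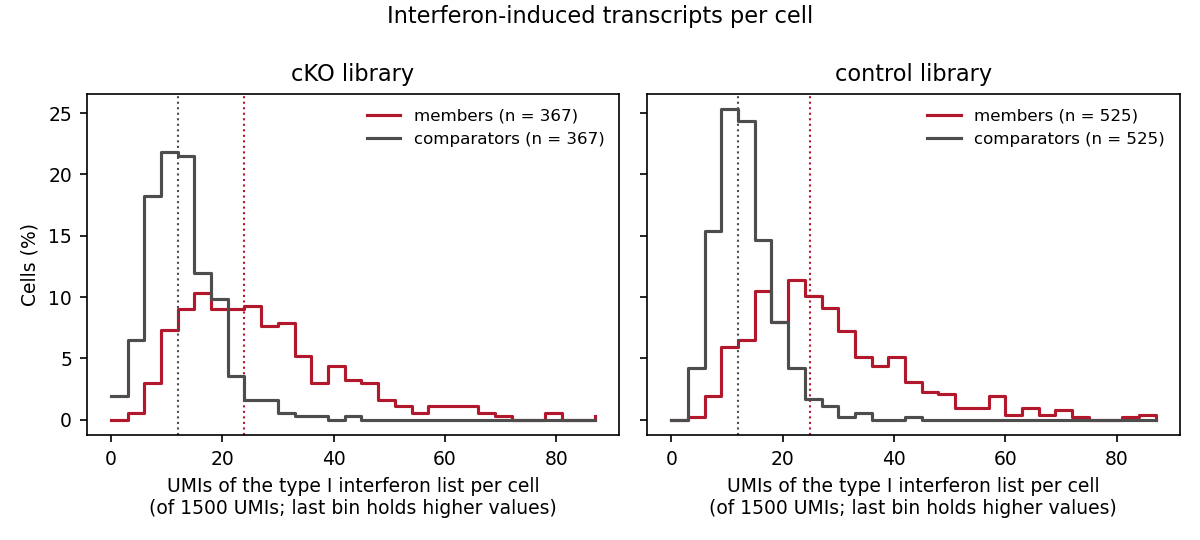
UMIs of the type I interferon list per cell after thinning to 1500 UMIs (horizontal axis, bins of 3 UMIs) against the share of cells (vertical axis, percent), in members (red) and comparators (grey) of the cKO library (left) and the control library (right), with dotted lines at the medians. Members centre on 24 and 25 UMIs and comparators on 12, with overlap.

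A gene was called higher or lower when its levels differed by a ratio of 1.5 or more, it had 20 CPM and 10 UMIs or more on the higher side, and 1 lay outside the interval of the ratio. In the cKO library 281 of 6019 genes (4.67%) were higher in members and 208 (3.46%) lower. In the control library 216 of 5608 genes (3.85%) were higher and 123 (2.19%) lower. Higher genes made up 57.5% of the calls in the cKO library, or 69.1% with median-ratio scaling. In the control library they made up 63.7%, or 53.1% with mitochondrial and ribosomal genes left out of the scaling. Over all genes that reached 10 CPM the median log2 ratio was -0.06 in the cKO library and -0.03 in the control library. Both libraries called 142 of the higher genes, which is 50.5% of those of the cKO library and 65.7% of those of the control library, and 74 of them are in the interferon lists. Both called 29 of the lower genes, 13.9% and 23.6%. The counts of higher genes, the 74 among them, include the 3 rule genes. Those of lower genes include Ncr1. The choice of cells fixed these calls.

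Of the type I interferon effectors, 55 of the 61 that could be called in the cKO library were higher in members and 0 lower, with a median log2 ratio of 1.89 over the 66 that reached 10 CPM. In the control library 58 of 63 were higher and 0 lower, with a median of 1.86 over 67. The members were chosen by genes of the same response, so these counts show how far that response reached and are not support for it. Rsad2, which encodes the antiviral enzyme viperin (chromosome 12, 26442746 to 26456452, minus strand), stood at 55.3 CPM in cKO members against 0.959 CPM in cKO comparators, and at 85.4 CPM in control members against 1.66 CPM in control comparators. The comparator levels rest on 3 and 6 UMIs, so the ratios of 49.6 (19.4 to 282) and 47.4 (23.3 to 141) are wide. Ifit3b, the near copy of Ifit3, reached 116 CPM in cKO members against 2.88 CPM in cKO comparators, and 154 CPM in control members against 2.77 CPM in control comparators. Bst2, also called tetherin, which holds budding viruses at the cell surface, was 3.88 times its comparator level in cKO members (300.2 against 77.3 CPM) and 3.57 times in control members (326 against 91.0 CPM). Slfn5, a Schlafen family gene, was 9.32 times its comparator level in cKO members and 15 times in control members. Cmpk2, a mitochondrial nucleotide kinase, was 9.92 and 13.3 times as high, and Oasl1, an oligoadenylate synthetase-like gene, 11.7 and 20.4 times. The listed genes that could be called in both libraries and were called in neither were Nt5c3, Shisa5, Ifi27, Ly6e and Ly6c2. Ly6c2, a surface protein of memory and activated lymphocytes, stood at 367 CPM in cKO members against 478 CPM in cKO comparators, and at 909 CPM in control members against 778 CPM in control comparators.

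**Figure D3:**
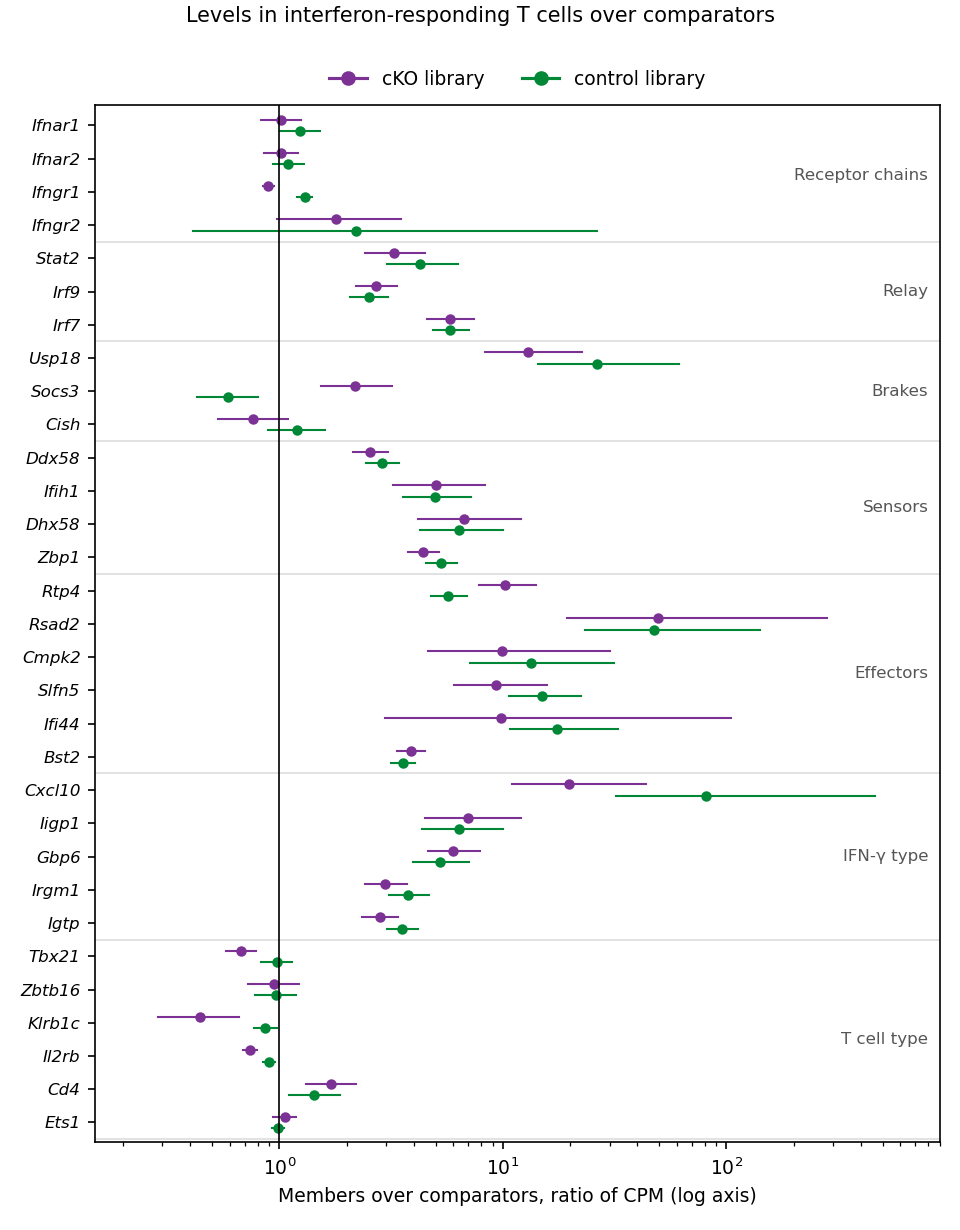
Ratio of CPM, members over comparators (horizontal log axis), for named genes grouped by role (vertical axis) in the cKO library (purple) and the control library (green); points are ratios, lines exact 95% intervals for counting error. Receptor chains lie between 0.89 and 2.2, whereas Irf7 lies at 5.77 and 5.82 and Rsad2 at 49.6 and 47.4; Socs3 lies on opposite sides of 1.

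The receptor for type I interferon did not differ by the size rule. Ifnar1 (chromosome 16, 91485238 to 91507441, plus strand) stood at 59.1 CPM in cKO members against 58.2 CPM in cKO comparators, and at 60.2 CPM in control members against 48.6 CPM in control comparators, with ratios of 1.02 (0.824 to 1.25) and 1.24 (1.01 to 1.52). Its partner Ifnar2 stood at 86.2 CPM in cKO members against 85.0 CPM in cKO comparators, and at 88.7 CPM in control members against 81.0 CPM in control comparators. Ifngr1, a chain of the interferon-γ receptor, had ratios of 0.891 (0.843 to 0.942) in the cKO library and 1.3 (1.2 to 1.4) in the control library. Of the 4 receptor genes that could be called 0 were higher and 0 lower in both libraries. Ifnlr1, the chain specific to type III interferon, had 1.28 CPM in cKO members and 0.555 CPM in control members.

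The interferons themselves were nearly absent from these cells, apart from interferon-γ. Of 20 ligand genes only Ifng could be called, and it was not, with 82.7 CPM in cKO members against 90.1 CPM in cKO comparators and 129.8 CPM in control members against 145 CPM in control comparators. Of the type I genes, Ifnz had 0.277 CPM in control members and 0 in control comparators, and Ifnk had 0 CPM in cKO members and 0.320 CPM in cKO comparators, where 0.320 CPM is 1 UMI. At this depth 3 UMIs correspond to 0.959 CPM in the cKO comparators and 0.832 CPM in the control comparators.

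Of 13 callable relay and interferon regulatory factors, 4 were higher in members of the cKO library, Irf7, Stat2 and Irf9 among them, and 1 lower (Irf8). In the control library 6 of 13 were higher, Irf7, Stat2, Irf9, Jak2 and Irf1 among them, and 0 lower. Jak1, Tyk2, Stat3, Stat4, Irf2 and Irf3 were called in neither library. Stat2 stood at 59.7 CPM in cKO members against 18.2 CPM in cKO comparators, and at 46.6 CPM in control members against 10.8 CPM in control comparators, with ratios of 3.26 (2.43 to 4.49) and 4.26 (3.02 to 6.27). Irf9, its partner in the complex, was 2.69 and 2.51 times as high.

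Of 13 callable brakes on the signal, 3 were higher and 0 lower in the cKO library. In the control library 2 were higher and 1 lower. Over all genes 4.67% and 3.85% were higher in these libraries, and 3.46% and 2.19% lower. Usp18, which blocks the type I receptor and removes Isg15 from proteins, was the member that differed most, at 80.8 CPM in cKO members against 6.07 CPM in cKO comparators, and 69.1 CPM in control members against 2.50 CPM in control comparators. Trim21, an antibody-binding ubiquitin ligase, was 1.86 and 2.48 times as high. Socs3, a suppressor of cytokine signalling through Stat3, stood at 32.3 CPM in cKO members against 14.7 CPM in cKO comparators, but at 18.3 CPM in control members against 31.1 CPM in control comparators. The call was thus higher in the cKO library (ratio 2.18, 1.53 to 3.18) and lower in the control library (0.591, 0.428 to 0.805), and the difference between the 2 ratios was not tested.

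Sensors of viral nucleic acid, which themselves answer to interferon, were higher in 6 of 11 cases in the cKO library and 4 of 11 in the control library, with 0 lower in both. Among all genes 4.67% and 3.85% were higher. Dhx58, Ifih1 and Ddx58, the LGP2, MDA5 and RIG-I sensors of double-stranded RNA, were 6.73, 5.0 and 2.55 times as high in cKO members and 6.34, 4.95 and 2.87 times in control members. Zbp1, a sensor of Z-form nucleic acid that can start cell death, stood at 257 CPM in cKO members against 58.5 CPM in cKO comparators, and at 283 CPM in control members against 53.3 CPM in control comparators. Aim2, a sensor of cytosolic DNA, had 24.6 CPM in cKO members against 13.1 CPM in cKO comparators, a call that was lost under 4 alternatives, and 36.9 CPM in control members against 29.1 CPM in control comparators, with no call. The difference between the libraries was not tested.

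Genes more usually linked to interferon-γ, GTPases and antigen processing, differed less. In the cKO library 20 of 33 were higher and 1 lower, with a median log2 ratio of 0.75, and in the control library 19 of 32 were higher and 0 lower, with a median of 0.71. The shares higher over all genes were 4.67% and 3.85%. The GTPases Iigp1, Gbp6, Irgm1, Igtp and Irgm2, which attack vacuoles of intracellular microbes, were 7.0, 5.96, 2.98, 2.81 and 3.15 times as high in cKO members. In control members they were 6.36, 5.21, 3.77, 3.54 and 4.47 times as high. The class I genes B2m, H2-K1 and H2-D1 could be called and were not, in both libraries. Cxcl10, a chemokine that draws T cells through Cxcr3 (chromosome 5, 92346638 to 92348889, minus strand), stood at 66.1 CPM in cKO members against 3.20 CPM in cKO comparators, and at 78.5 CPM in control members against 0.832 CPM in control comparators. Few cells carried it: 7.08% of cKO members and 2.18% of cKO comparators held a UMI, as did 8.12% of control members and 0.518% of control comparators. Without cells that held markers of other cell types its log2 ratio was 1.10 in the cKO library and 2.81 in the control library. It was no longer called in either. That removal left 60 of 368 cKO members and 251 of 580 control members. The myeloid and dendritic list used for it holds Fcer1g, also an iNKT1 marker here. At least 2 UMIs of that list were held by 73.6% of cKO members and 71.1% of cKO comparators. In the control library the shares were 54.4% and 51.1%. The removal thus took many cells of both groups, and the part of this loss in the lost calls was not tested.

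Members differed among themselves along the number of rule UMIs, which is a description because that number chose them. T cells thinned to 1500 UMIs were binned by 0, 1, 2, 3 to 4 and at least 5 rule UMIs, with 2265, 353, 68, 60 and 57 cells in the cKO library and 3405, 551, 194, 113 and 85 cells in the control library. The type I list, which holds no rule gene, stood at 8954, 11552, 14637, 21456 and 30596 CPM in these bins of the cKO library, and at 9290, 11857, 14918, 19794 and 29726 CPM in those of the control library. Cells with 1 or 2 UMIs, below the threshold, already lay above cells with 0. Rtp4 followed the same order, at 28.8, 71.8, 176, 200 and 398 CPM in the cKO library and 55.8, 117, 227, 265 and 376 CPM in the control library. Cxcl10 was concentrated in the top bin, with 573 CPM (424 to 758) in the cKO library and 314 CPM (224 to 427) in the control library, against 55.6 and 23.6 CPM in the bin of 3 to 4 UMIs. Ets1 in the control library stayed between 494 and 531 CPM in all bins. In the cKO library it ranged from 93.6 to 289 CPM without order.

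**Figure D4:**
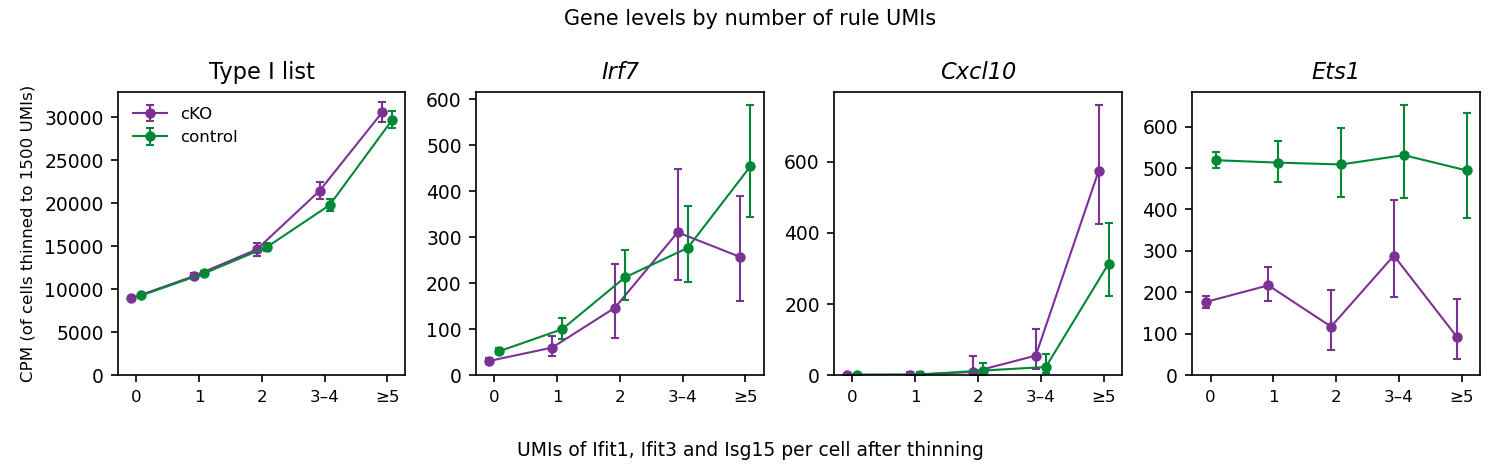
CPM of the type I list and of 3 genes (vertical axes) by the number of Ifit1, Ifit3 and Isg15 UMIs per T cell after thinning to 1500 UMIs (horizontal axis), in the cKO library (purple) and the control library (green), with exact 95% Poisson intervals. The list increases over all bins in both libraries, Cxcl10 stands out in the top bin at 573 and 314 CPM, and Ets1 in the control library stays between 494 and 531 CPM.

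Outside the interferon lists 68 genes were higher in members of both libraries. Several are interferon-induced in other settings but had not been listed, such as Ddx60, an RNA helicase, at 84.6 CPM in cKO members against 15.3 CPM in cKO comparators and 87.1 CPM in control members against 22.2 CPM in control comparators. Ifi214 was 3.57 and 5.27 times as high, Pml, which builds nuclear bodies, 3.11 and 3.98 times, Ifit1bl1 4.29 and 3.95 times, and Trim34a 3.24 and 2.12 times. These genes were among those with the highest ratios outside the lists, together with genes of B cells and antigen-presenting cells. Apoe reached 264 CPM in cKO members against 53.7 CPM in cKO comparators, Ly6d 469 against 126 CPM, H2-Ab1 518 against 152 CPM and Cd79a 251 against 106 CPM. Control members had 109 CPM of Apoe, 83.2 of Ly6d, 115 of H2-Ab1 and 67.4 of Cd79a, against 15, 9.43, 31.6 and 24.4 CPM in control comparators. Cells with at least 2 UMIs of B cell markers made up 8.17% of cKO members and 4.36% of cKO comparators (30 and 16 of 367 cells), and 2.94% of control members and 2.25% of control comparators (17 and 13 of 579). The 10 cells with most B cell marker UMIs held 55.8% of them in cKO members and 92.2% in control members. Cells of at least 2 B cell marker UMIs were then left out. Cd79a, H2-Ab1 and Apoe lay at 0.637, 0.695 and 0.852 times the comparator level in the cKO library. In the control library they lay at 0.777, 8.69 and 1.12 times. None of the 3, nor Ly6d, was called in either library. The H2-Ab1 ratio in the control library lay above the 3.64 with all cells. Its call there was thus lost through level, UMI count or interval, not through the ratio. Cd79a is itself among the markers used for the removal, so its value there follows from it, whereas the other genes are not. In that setting, added after the data were seen, 135 genes were higher in members of both libraries, 128 of them among the 142, and 74 of the 135 were in the interferon lists.

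Of 16 callable cytotoxic effectors 5 were lower in cKO members (Ccl4, Prf1, Gzma, Ccl5 and Serpinb6b), and of 17 in the control library 3 were lower (Gzmc, Gzma and Ccl5), with 0 higher in both. Gzmb, Nkg7, Ctsw, Cst7, Srgn and Fasl were called in neither. Of 7 callable NK and ILC1 markers, 6 were lower in cKO members and 4 in control members, and 0 were higher. This list holds Ncr1, which the rule set to 0. Gzma and Prf1 are in both the cytotoxic and the NK list. Among all genes 3.46% were lower in the cKO library and 2.19% in the control library. Gzma, the granzyme A gene, stood at 112 CPM in cKO members against 696 CPM in cKO comparators, and at 252 CPM in control members against 429.5 CPM in control comparators. Tyrobp, the adaptor of NK receptors, stood at 14.1 CPM in cKO members against 153 CPM in cKO comparators, and at 25.8 CPM in control members against 107 CPM in control comparators. After thinning, Gzma was detected in 4.90% of cKO members and 5.18% of cKO comparators, and in 11.2% of control members and 13.3% of control comparators, with overlapping intervals. Tyrobp was detected in 1.63% of cKO members (0.602 to 3.52%) and 4.36% of cKO comparators (2.51 to 6.98%), and in 3.81% of control members (2.34 to 5.82%) and 7.05% of control comparators (5.01 to 9.58%), also with overlapping intervals. The 10 cells with most NK marker UMIs held 59.9% of those UMIs among cKO comparators and 26.3% among cKO members. Against comparators that also had no UMI of Trav11, Rag1 and Ncr1, the ratio of Gzma was 0.652 in the cKO library and 0.680 in the control library, where it was no longer called, and that of Tyrobp 0.998 and 0.721, called in neither. In the same setting 2 of 5 NK markers were lower in the cKO library and 0 of 6 in the control library. Ccl5, a chemokine of cytotoxic cells, was 0.283 times its comparator level in cKO members and 0.627 times in control members, or 0.664 and, not called, 0.809 times in that setting.

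Some genes that assemble ribosomes were lower in members. Gnl3, the nucleolar GTPase nucleostemin, stood at 50.5 CPM in cKO members against 88.8 CPM in cKO comparators, and at 49.1 CPM in control members against 92.7 CPM in control comparators, with ratios of 0.569 (0.464 to 0.693) and 0.530 (0.439 to 0.637). Its call was lost under 3 alternatives in the cKO library and 1 in the control library. After this and similar genes had been seen, a list of 35 nucleolar and ribosome assembly genes was written from general knowledge, so its counts are a description only. Of 30 that could be called, 10 were lower and 0 higher in each library, against 3.46% and 2.19% of all genes, with median log2 ratios of -0.43 in the cKO library and -0.55 in the control library. The list also holds Srm, a polyamine enzyme that does not assemble ribosomes, and without it 9 of 29 were lower in each library. Both libraries called Gnl3, Wdr12, Rrp15 and Mybbp1a. Npm1 and Ncl, abundant nucleolar proteins, were not called, at 0.897 and 0.798 times the comparator level in cKO members and 0.831 and 0.816 times in control members. The count depended on the settings. It was 2 of 30 in the cKO library and 3 of 30 in the control library with a rule of at least 2 UMIs. Further counts in the cKO library were 2 of 29 without depth matching, 6 of 28 with every cell weighted equally and 5 of 24 without cells with markers of other types, and at 2-fold the count was 0 of 30, against 1 of 30 in the control library. Srm itself stood at 24.0 CPM in cKO members against 42.8 CPM in cKO comparators, and at 25 CPM in control members against 55.5 CPM in control comparators. Its call in the cKO library was lost under 4 alternatives. Without cells with markers of other types, which left 60 cKO members, its log2 ratio was 1.06. Between cKO and control members 0 of 28 genes of the list differed in either direction.

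**Figure D5:**
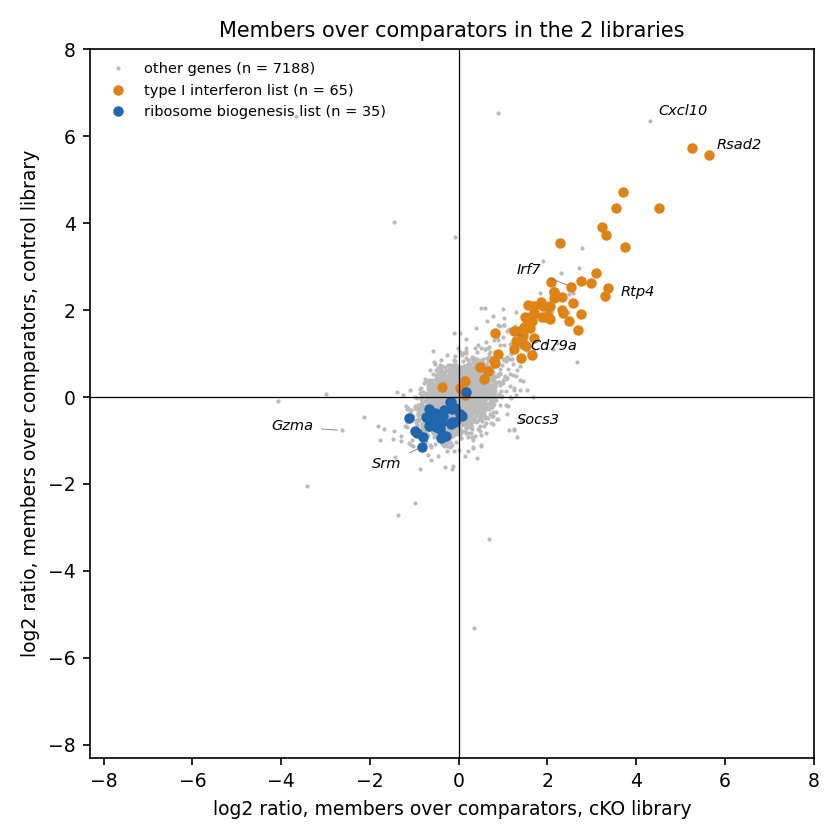
Log2 ratio of members over comparators in the cKO library (horizontal axis) and the control library (vertical axis) for 7288 genes that reached 10 CPM in each library, without rule and gate genes; type I interferon list in orange, ribosome biogenesis list in blue (Srm included), other genes in grey. Orange points lie mostly in the upper right, with medians of 1.89 and 1.86, and blue points mostly in the lower left, with medians of -0.43 and -0.55; Socs3 lies to the lower right.

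The kind of T cell was described with marker lists of NKT subsets. Of the iNKT1 markers 0 were higher in either library, with 5 of 19 lower in cKO members and 4 of 20 in control members, and Gzma, Ccl5 and Fcer1g were lower in both. The shares lower over all genes were 3.46% and 2.19%. Gzma and Ccl5 are also in the cytotoxic list, and Gzma and Fcer1g in the NK list. Against comparators with the full gate, 3 of 18 iNKT1 markers were lower in the cKO library and 0 of 20 in the control library. Tbx21, the T-bet gene, stood at 91.7 CPM in cKO members against 136 CPM in cKO comparators, and at 87.1 CPM in control members against 89.3 CPM in control comparators, and was not called. Zbtb16, the gene of the NKT regulator PLZF, had ratios of 0.944 and 0.962. Il2rb, a chain of the interleukin-15 receptor, had ratios of 0.739 and 0.899. Plac8 was higher in both libraries, at 358 CPM in cKO members against 121 CPM in cKO comparators, and 126 CPM in control members against 54.7 CPM in control comparators. In the cKO library Slamf6, Ccr7, Cd4 and Izumo1r of the same iNKT2 and precursor list were also higher, 5 of 10 in all, against 1 of 10 in the control library. The shares higher over all genes were 4.67% and 3.85%. Tcf7, a factor of early and memory T cells, was higher in cKO members, at 134 against 80.2 CPM, but stood at 54.6 CPM in control members against 62.7 CPM in control comparators. The difference between the libraries was not tested. When the rule was applied after thinning, Slamf6, Ccr7, Cd4 and Tcf7 were no longer called in the cKO library, with ratios of 1.17, 1.76, 1.43 and 1.05. Immediate early genes, which answer to receptor signals, were called in 0 of 17 cases in the cKO library and 0 of 20 in the control library.

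The letters of the response element were counted in the promoters of these genes, on both strands and in the same windows of 300 bases. GAAANNGAAA was present in 3.44% of the 32851 promoters searched, and in 3.99% of 27025 genes. Of the type I list, 56 genes had a promoter in RefSeq, and 25 of them (44.6%) held the letters. Of the interferon-γ list 13 of 26 genes (50%) held them. Among genes higher in members they were present in 50 of 217 (23%) in the cKO library and 47 of 170 (27.6%) in the control library. Among lower genes they were present in 3 of 156 (1.92%) and 3 of 98 (3.06%). Of the genes higher in both libraries but outside the lists, 14 of 59 (23.7%) held them. The letters TTCNNNGAA, to which STAT pairs bind, were present in 9.55% of the 27025 genes searched. They were present in 16.1% of the type I list genes searched and 26.9% of those of the interferon-γ list. The search did not cover every chromosome. The promoter of Cxcl10, described above by the number of rule UMIs, holds GAAANNGAAA 213 bases before its start, in capitals below, and that of Irf7 holds neither motif in this window. The windows are chr5:92348840-92349139 for Cxcl10 and chr7:141266375-141266674 for Irf7, both on the minus strand.
Cxcl10: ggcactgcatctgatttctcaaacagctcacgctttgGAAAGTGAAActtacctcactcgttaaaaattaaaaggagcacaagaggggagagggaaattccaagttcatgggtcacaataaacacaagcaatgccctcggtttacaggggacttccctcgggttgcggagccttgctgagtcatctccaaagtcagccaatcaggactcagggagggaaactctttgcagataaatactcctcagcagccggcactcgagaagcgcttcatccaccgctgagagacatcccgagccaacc
Irf7: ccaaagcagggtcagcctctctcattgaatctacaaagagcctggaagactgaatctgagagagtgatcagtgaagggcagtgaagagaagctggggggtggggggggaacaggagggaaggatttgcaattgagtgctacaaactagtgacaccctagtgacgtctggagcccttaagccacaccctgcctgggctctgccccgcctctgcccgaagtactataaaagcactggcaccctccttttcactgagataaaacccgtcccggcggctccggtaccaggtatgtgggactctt
A match is a run of letters and not a measured binding site.

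Whether the response of these cells differed with Ets1 was the comparison between the libraries. Of 5926 genes, 738 (12.5%) were higher and 398 (6.72%) lower in cKO members than in control members. In comparators, 909 of 6012 genes (15.1%) were higher and 349 (5.81%) lower. The median log2 ratio over all genes in members was 0.13, and -0.01 with mitochondrial and ribosomal genes left out of the scaling. Higher genes made up 65.0% of the calls, but 46.2% with that scaling and 50% with median-ratio scaling, so this split depends on the scaling. The type I list had 5 genes higher and 14 lower of 63 in members, with a median log2 ratio of -0.21, and 5 higher and 11 lower of 46 in comparators, with a median of -0.10. In members it had 4 higher and 21 lower of 67 without mitochondrial and ribosomal genes in the scaling, with a median of -0.33. With the rule applied after thinning it had 6 higher and 12 lower of 66, with a median of -0.11. Without cells with B cell markers it had 3 higher and 9 lower of 63, with a median of -0.15. Without cells with markers of other types it had 5 higher and 9 lower of 63, with a median of -0.10. The counts thus depend on the settings. The interferon-γ list had 1 higher and 1 lower of 33 in members. The genes of the rule did not differ by the size rule, with ratios of 0.849 for Ifit1, 0.825 for Ifit3 and 0.809 for Isg15. Nor did Stat2 (1.28), Irf9 (1.03), Irf7 (0.701), Rtp4 (0.781) or Usp18 (1.18). The rule genes chose the members at a fixed count, and median depth was 7321 UMIs in cKO members and 6104 in control members. The ratios of the rule genes therefore cannot show whether the response differed.

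The lower genes of the type I list in cKO members were led by Ifi44, an interferon-induced gene (chromosome 3, 151730922 to 151749960, minus strand). It stood at 7.58 CPM in cKO members against 74.6 CPM in control members, a ratio of 0.104 (0.0640 to 0.154), and its ratio in comparators was 0.186, on 2 UMIs in cKO and 15 in control comparators. Ifi204 and Ifi208, of a family that includes DNA sensors and has near copies that can split reads, stood at 10.7 and 100.4 CPM in cKO members against 47.6 and 214 CPM in control members. Ifi208 was also lower in cKO comparators, with a ratio of 0.213 against 0.469 in members. Slfn5 (chromosome 11, 82951349 to 82964840, plus strand) stood at 63.2 CPM in cKO members against 134 CPM in control members, a ratio of 0.473 (0.399 to 0.558), and its ratio in comparators was 0.762, not called. Without cells holding markers of other types, which left 60 cKO and 251 control members, the log2 ratio of Slfn5 was -0.37 and it was no longer called. Rsad2 and Ifih1 had ratios of 0.645 and 0.656 and lost the call in 8 of the alternatives each. Genotype cannot be told apart here from other differences between the mice or the libraries.

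Over all genes, 12.5% were higher and 6.72% lower in cKO members than in control members, and 15.1% and 5.81% in cKO comparators. Of 20 immediate early genes, 13 were lower in cKO members and 12 in cKO comparators, and 0 were higher in both. Of 10 heat shock genes, 4 were lower in cKO members and 3 in cKO comparators, and 0 were higher. The median mitochondrial share was 2.63% in cKO members and 4.20% in control members, and the part of these 2 measures in the other differences was not tested. Dusp1, a phosphatase induced on stimulation, stood at 341 CPM in cKO members against 929 CPM in control members, and its ratio was 0.367 in members and 0.376 in comparators. Ifng was lower in cKO members, at 81.8 against 129 CPM, with a ratio of 0.636, and 0.624 in comparators, and the call in members was lost under 5 alternatives, among them the removal of cells with B cell markers. Klrb1c, the NK1.1 gene that marks mature NKT cells, stood at 11.1 CPM in cKO members against 153 CPM in control members, a ratio of 0.0733, and 0.145 in comparators. Ifngr1 was higher in cKO members, at 764 against 447 CPM, with a ratio of 1.71, and 2.51 in comparators. Of NK and ILC1 markers 0 were higher and 4 lower of 6 in cKO members, against 3 higher and 1 lower of 7 in cKO comparators. The 3 are Prf1, Gzma and Ncr1. The rule set Ncr1 to 0 in members but not in comparators, so these counts are not alike. Of cytotoxic effectors 2 were higher and 6 lower of 16 in cKO members, against 6 higher and 3 lower of 17 in cKO comparators, and of iNKT1 markers 2 higher and 8 lower of 20, against 8 higher and 6 lower of 20. Whether members and comparators differ in these counts was not tested. The 3 lists share called genes, so their counts are not separate. Gzma is in all 3, and Prf1 in the NK and cytotoxic lists. Xcl1, Ifng, Ctsw, Gzmb and Nkg7 are in the cytotoxic and iNKT1 lists. Prf1, the perforin gene, was lower in cKO members, at 11.7 against 48.7 CPM (ratio 0.242), but higher in cKO comparators (ratio 2.02). Comparators, unlike members, could hold Ncr1. NK marker UMIs in cKO comparators lay mostly in 10 cells, with the share given above. The part of these cells in that ratio was not tested. B cell markers moved with the genotype as well, 7 of 7 higher in cKO members and 6 of 6 in cKO comparators, as did cycling genes, 5 of 5 in both. Regulatory T cell markers were higher in 2 of 4 cases in cKO members and 4 of 5 in cKO comparators, and gut epithelium genes in 8 of 8 in cKO comparators, while 0 gut epithelium genes could be called in members. The part of these cells in the other differences was not tested.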

How the data were processed

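RNA of single YFP+ thymus cells was measured in 1 library per genotype. The deposited matrices give UMI counts, in whole numbers, of 32285 features. Per the submitters' processing notes they were made with Cell Ranger 2.1.1 on mm10, while the file headers name software version 3.0.0, and this was not resolved. The library protocol is a 3' one, per the labels. No deposited barcode had under 500 UMIs.

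Cells were kept from 500 genes upward, up to 10% mitochondrial UMIs, and no doublet caller was run, so doublets are not removed. The members and gene lists were chosen with earlier results of these data known. Counts were summed over cells. Ratios of CPM had 0.5 UMIs added to both sums and exact conditional binomial intervals; levels have exact Poisson and shares exact Clopper-Pearson intervals. These treat UMIs and cells as independent and cover counting error only. A count of 0 was set against 3 counts. Thinning drew 1500 UMIs per cell without replacement. Genes were named by rule: interferon and NKT regulators whatever their values, per comparison the 8 highest and 8 lowest ratios reaching 50 CPM and the 8 highest outside the interferon lists, and up to 6 members of each interferon list or 4 of other lists, of which part is printed. The interferon lists share members, such as Irf7 and Usp18. Some genes are not reported here. The ribosome biogenesis list and its genes, Cxcl10 levels by bin, and the genes named for losing a call were picked with their values known.

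The size rule was checked on simulated counts. For 50 genes each with a 2-fold or 4-fold difference, it called 48 and 50 in the cKO pairs and 49 and 50 in the control pairs; of genes with no difference it called 53 of 5795 and 20 of 5441. Real cells vary more than this. Gene coordinates follow GENCODE vM21 (GRCm38), which held 99.85% of the identifiers. Promoters are RefSeq's on GRCm38.p6. Alternatives covered filters, rule, depth, comparators, scaling, weighting, thresholds and cells with markers of other types. The tools used were scipy 1.17.1, numpy 2.4.6, matplotlib 3.10.9, pandas 2.3.3 and Python 3.11.15.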

Additional observations from a re-analysis of the deposited data

Results flagged for a closer look

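Socs3 was called in opposite directions in the 2 libraries. Its log2 ratio of members over comparators was 1.13 in the cKO library and -0.76 in the control library. The difference between these ratios was not tested, since there is 1 library per genotype. The call in the control library was lost under 5 alternatives and that in the cKO library under 1. Car2, the carbonic anhydrase 2 gene and a member of the erythroid list, had log2 ratios of 0.68 in the cKO library and -3.26 in the control library, and the difference between these was not tested either. Its calls were lost under 7 alternatives in the cKO library and 4 in the control library.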

How the results depend on the processing

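No paired analysis was possible because each genotype has 1 library, and for the same reason no library could be left out. The type I interferon list had 0 genes lower in members of either library under any alternative listed here. The share of gated T cells that met the rule moved to 20.9% in the cKO library and 16.4% in the control library with at least 2 rule UMIs, to 8.01% and 5.78% with at least 5, to 4.17% and 4.55% after thinning, and to 9.49% and 7.33% without cells holding markers of other cell types. That last removal left 632 of 2773 gated cells in the cKO library and 3422 of 5812 in the control library. The control share was 16.1% with at least 1000 genes and 16.9% with at least 3000 UMIs. Genes lower in members numbered 89 in the cKO library and 66 in the control library with at least 2 rule UMIs. They numbered 343 and 228 with at least 5, and 376 and 294 with the rule applied after thinning. In the control library they numbered 229 without cells with markers of other types, 75 without depth matching and 251 when scaled without mitochondrial and ribosomal protein genes, a scaling that gave 751 genes lower in cKO members than in control members. At 2-fold, 143 genes were higher and 45 lower in cKO members than in comparators, 113 and 22 in control members, and 269 and 145 between cKO and control members. At 50 CPM these were 139 and 68, 127 and 30, and 335 and 196.

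Named genes that changed direction were mostly B cell, NK cell and low genes. In the setting with the rule after thinning, thinned counts chose members and comparators, and full counts of these cells were summed. Comparators there could hold rule genes or Cd8b1 in the full counts. In that setting the log2 ratio over comparators in the cKO library was -1.51 for Apoe, -1.67 for Cd79a and 0.45 for Tyrobp. In the control library it was -3.04 for Apoe, -2.97 for Ly6d, -4.75 for Cd79a and -2.10 for H2-Ab1. Without cells with markers of other types it was -1.22 for Ly6d, -0.65 for H2-Ab1, 0.48 for Tyrobp, 0.88 for Klra7 and 1.06 for Srm in the cKO library and 0.20 for Gzma and 0.85 for Car2 in the control library. Between cKO and control members it was then 0.17 for Cish, -0.51 for Ly6d and 0.34 for Klra7. Without cells with B cell markers it was -0.23 for Apoe, -0.65 for Cd79a and -0.52 for H2-Ab1 in the cKO library, -0.36 for Cd79a in the control library and -1.07 for H2-Ab1 between cKO and control members. Without cells with MHC class II UMIs it was -1.10 for Cd79a and -1.04 for H2-Ab1 in the cKO library. Cd79a is among the B cell markers and H2-Ab1 among the class II genes used for these removals. These 2 last removals were chosen after seeing the data, and the cause of these changes was not tested. The removal of cells with markers of other types left 60 cKO and 251 control members, which limits its values. Depth also limits the low genes, since 3 UMIs are 0.959 CPM in the cKO comparators and 0.832 CPM in the control comparators.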

Other observations

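Some genes of NK receptors were lower in members of both libraries and have not been described above. The Ly49 receptor genes Klra4 and Klra7, of a family with near copies, had ratios of 0.590 and 0.479 in the cKO library and 0.545 and 0.507 in the control library. Against comparators without Trav11, Rag1 and Ncr1 UMIs, Klra4 was called in neither library and Klra7 in the control library only. Bcl2, which protects T cells from death, stood at 199 CPM in cKO members against 288 CPM in cKO comparators and at 207 CPM in control members against 329 CPM in control comparators, and was called lower in the control library (ratio 0.630), while its ratio of 0.690 in the cKO library missed the size rule.

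Markers of red blood cells stood apart in the comparators of the control library, where 5 of 5 callable erythroid genes were lower in members, while in the cKO library the 1 callable gene of the list, Car2, was higher. Car2 stood at 37.4 CPM in cKO members against 23.3 CPM in cKO comparators, and at 3.33 CPM in control members against 33.02 CPM in control comparators. The 10 cells with most of these UMIs held 96.4% of them among control comparators, and the list stood at 3.88 CPM in members against 287 CPM in comparators. In the cKO library 8 of 8 callable gut epithelium genes were lower in members, at 81.4 CPM in members against 436 CPM in comparators, of which 10 cells held 89.7%.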
